A study of Homo sapiens with 36 samples.

Results

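The genes described here encode the machinery that transcribes ribosomal RNA and assembles ribosomes, together with the regulator MYC. The 51 genes were taken by symbol from a list that was drawn up with earlier results of these data known, and all 51 were found among the 57500 genes of the count files and passed the low-count filter that left 17720 genes for testing. They were followed in THP-1 cells, a human monocytic leukaemia line, in 12 conditions with 3 RNA-seq libraries each. Cells were kept for 4 h in pre-equilibrated, pH-buffered DMEM with 10% FBS at 5% CO2 (normocapnia) or 10% CO2 (hypercapnia), and LPS at 2.5 µg/ml was present for the last 2 h in the conditions named "+ LPS". Every line had been transduced with lentiviral particles and carried a short hairpin RNA: a non-target hairpin in shNT, one against NR4A2 in shNR4A2, and one against NR4A3 in shNR4A3. NR4A2 and NR4A3 are orphan nuclear receptors. Each hairpin was represented by 1 transduced line, so a difference between lines cannot be told apart from a difference between transduced populations. The study describes its replicates as individual experiments, the labels do not say how their cultures were kept apart, and p-values measure the spread between these libraries.

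RNA polymerase I transcribes the long ribosomal RNA precursor in the nucleolus, starting where the factor UBTF and the selectivity complex that contains the TAF1 proteins sit on the ribosomal DNA and where RRN3 brings in a polymerase ready to initiate. The precursor is then modified by small nucleolar ribonucleoproteins (snoRNPs), cleaved, and folded with ribosomal proteins by the small-subunit processome and by the large-subunit assembly factors. MYC is a transcription factor known to raise the expression of many of these genes in proliferating cells.

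The libraries held 16171161 to 23929138 counts each (median 19639071), of which the 51 members took 0.610% to 0.854%. Monocyte markers were present, given here as condition means, with SPI1, a myeloid transcription factor, at 500 to 1048 TPM and LYZ, the gene of lysozyme, at 151 to 920 TPM, while CD68 (2.49 to 4.83 TPM) and MPO (3.16 to 5.20 TPM) were low. Of 9 markers of other cell types, 6 stayed under 1 TPM in every library. PECAM1 stood above that, with condition means of 97.2 to 269 TPM, and so did NCAM1, whose levels differed between the lines: its libraries lay at 1.19 to 1.79 TPM in shNT, 8.04 to 15.6 TPM in shNR4A2 and 5.98 to 12.3 TPM in shNR4A3. Averaged over 4 states, NR4A2 was lower in shNR4A2 than in shNT (log2 fold change -1.28, SE 0.10, edgeR adjusted p = 6.6e-12) and NR4A3 was lower in shNR4A3 (-1.20, SE 0.18, adjusted p = 2.4e-06). In unstimulated cells at 10% CO2 the NR4A3 difference was -0.39 and did not pass the test (adjusted p = 0.74).

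In shNT at 5% CO2 the members spanned 948 ± 39.2 TPM (SD, n = 3) for NPM1, which encodes the nucleolar chaperone nucleophosmin, to 8.98 TPM for EMG1, a methyltransferase of small-subunit rRNA. TPM here divides by the deposited gene length, which is 5600 bases for EMG1 and is not the length of a single transcript. Levels of different genes can therefore be set side by side only roughly. The median member stood at 65.5 TPM. NCL (nucleolin, 726 TPM) and MYC (407 TPM) followed NPM1, then the nucleolar RNA helicase DDX21 (282 TPM), the rRNA methyltransferase FBL (255 TPM) and the snoRNP chaperone NOLC1 (216 TPM). POLR1A, the largest subunit of RNA polymerase I, stood at 26.1 TPM and TAF1A at 12.2 TPM. In this order, 13 of 50 neighbouring pairs lay further apart than the sum of their SDs, so most neighbours could not be ranked.

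The mean log2 CPM over the 51 members, where CPM is a gene's count per library size scaled by TMM factors, was higher at 10% than at 5% CO2 in every line with and without LPS, by 0.17 to 0.22. In shNT it was 6.41, 6.35 and 6.38 in the 3 libraries at 5% CO2 and 6.65, 6.62 and 6.53 at 10% CO2. With LPS the shNT libraries stood at 6.41, 6.44 and 6.45 at 5% CO2 and at 6.71, 6.64 and 6.60 at 10% CO2. The libraries of the 2 CO2 levels did not overlap in shNT or in shNR4A3, and they overlapped in unstimulated shNR4A2, where replicate 1 at 5% CO2 (6.32) lay above replicate 3 at 10% CO2 (6.27). At the same CO2 level and LPS state the module mean was lowest in shNR4A2, at 6.20 ± 0.11 at 5% CO2 against 6.38 ± 0.03 in shNT and 6.36 ± 0.03 in shNR4A3 (mean ± SD, n = 3 each). Averaged over the design it differed by 0.20 for CO2, by 0.00 for LPS (0.05 without MYC), by -0.23 for shNR4A2 against shNT and by -0.07 for shNR4A3 against shNT. These differences of the mean are descriptions and carry no test.

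**Figure D1:**
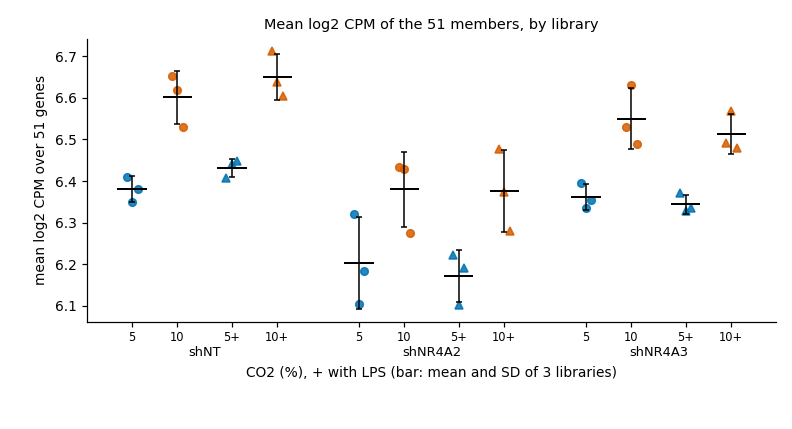
Mean log2 CPM over the 51 members (vertical axis) in each of the 36 libraries, by line, CO2 level (5% blue, 10% orange) and LPS (triangles); bars give the mean and SD of 3 libraries. In each line and LPS state the 10% CO2 mean lies above the 5% CO2 mean, by 0.17 to 0.22, and at the same CO2 level and LPS state the shNR4A2 mean lies lowest of the 3 lines.

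To ask how the genes respond to hypercapnia, the 10% and 5% CO2 conditions were compared in 1 fit to the 36 libraries, averaging over the 6 pairs of line and LPS state. Of the 51 members, 37 rose, 3 fell and 11 did not pass the test, at an adjusted p under 0.05 over all genes tested. Of all genes, 36.4% passed, 17% as higher and 19.4% as lower. The median member differed by 0.17 on the log2 scale and the median of all genes by -0.0042. The largest increases were in MDN1, the ATPase that strips assembly factors from the pre-large subunit (log2 fold change 0.65, SE 0.09, adjusted p = 4.1e-06), POLR1A (0.59, SE 0.05, adjusted p = 4.2e-10), the large-subunit factor URB1 (0.57, SE 0.05, adjusted p = 6.0e-10) and the helicase DDX10 (0.53, SE 0.07, adjusted p = 1.8e-07). The share of counts from the mitochondrial genome moved with CO2 too, at 1.05% to 2.19% in the 18 libraries at 5% CO2 and 1.54% to 4.15% in the 18 at 10% CO2. Its part in the result was not tested.

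Within the polymerase itself, POLR1A and POLR1B, the subunits that form the catalytic centre, rose, the latter by 0.44 (SE 0.06). POLR1C, which RNA polymerase III shares, differed by 0.03 (SE 0.04) and POLR1E by 0.07 (SE 0.04), and neither passed. POLR1A stood at 81.0, 80.8 and 105 CPM in shNT at 5% CO2 and at 131, 130 and 107 CPM at 10% CO2. With LPS the same line gave 77.0, 96 and 83.3 CPM against 136, 129 and 123 CPM. The 3 libraries at 10% CO2 were above the 3 at 5% CO2 in shNT, narrowly without LPS and clearly with it. In shNR4A2 with LPS the values were 53.0, 61.2 and 71.8 CPM at 5% and 110, 106 and 99.9 CPM at 10% CO2, a gap wider than either group's range. POLR1A was one of 5 members whose 10% CO2 libraries lay above all 5% CO2 libraries in each of the 6 pairs, with NOP56, NAT10, RRP9 and URB1. The share of all genes that did so in each of the 6 pairs was not counted. The study had already named POLR1A and RRP9 as higher at 10% CO2 in every line and LPS state, from these same data.

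The factors of promoter recognition went in both directions. TAF1A, a subunit of the selectivity complex, rose by 0.48 (SE 0.09, adjusted p = 5.2e-05), its partner TAF1B was lower at 10% CO2 (-0.20, SE 0.04, adjusted p = 0.00017), and TAF1C (-0.13, SE 0.06), TAF1D (0.04, SE 0.05) and RRN3 (0.11, SE 0.05) did not pass. UBTF, the third member that fell with TAF1B and MYC, had a log2 fold change of -0.35 (SE 0.05, adjusted p = 2.0e-06). UBTF stood at 215, 216 and 176 CPM in shNT + LPS at 5% CO2 and at 163, 121 and 152 CPM at 10% CO2. The groups did not overlap there, whereas without LPS shNT gave 328, 290 and 270 CPM against 286, 259 and 302 CPM, which overlapped. UBTF differed by -0.48 (SE 0.11, adjusted p = 0.032) in shNT + LPS, -0.55 (SE 0.11, adjusted p = 0.037) in shNR4A3 + LPS and -0.64 (adjusted p = 0.069) in shNR4A2 + LPS, and by -0.06 to -0.21 in the lines without LPS. The difference between the CO2 responses with and without LPS, averaged over the 3 lines, was itself past the threshold for UBTF (-0.42, SE 0.10, adjusted p = 0.020). It was the only member among the 353 genes called for that difference, which are 1.99% of all tested, and its call held without any 1 of the 36 libraries.

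Of the 9 snoRNP and rRNA-modification genes, 8 rose. The exception was DIMT1, a dimethylase of small-subunit rRNA, which differed by -0.01 (SE 0.04). The largest changes were in NAT10, the acetyltransferase of small-subunit rRNA (0.46, SE 0.04, adjusted p = 2.2e-10), RRP9, a protein of the U3 snoRNP that guides early cleavages (0.46, SE 0.04, adjusted p = 2.9e-10), and NOP56, a scaffold of box C/D snoRNPs (0.33, SE 0.04). RRP9 stood at 44.2, 45.6 and 40.7 CPM in shNT at 5% CO2 and at 58.8, 66.6 and 67.4 CPM at 10% CO2. In shNR4A3 the same gene gave 48.6, 45.0 and 43.8 CPM against 62.6, 63.9 and 51 CPM. All libraries at 10% CO2 exceeded all at 5% CO2 in both lines, with the smaller gap in shNR4A3. FBL (0.12), NOLC1 (0.19), DKC1, the rRNA pseudouridine synthase (0.17), EMG1 (0.16) and NOP58 (0.22) rose by less.

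Of the 11 members of the small-subunit processome, 8 rose and 3 did not pass. After DDX10 the largest were WDR75 (0.37, SE 0.05) and UTP20 (0.34, SE 0.05, adjusted p = 9.3e-06). WDR43 (0.09), the GTPase gene BMS1 (0.03) and NOP14 (0.06) did not pass. HEATR1, UTP4, UTP15, NOL6 and NOL11 rose by 0.10 to 0.21. All 5 genes of late small-subunit maturation rose, from 0.09 for NOB1, the endonuclease that cuts the end of the small-subunit rRNA, to 0.25 for the export factor RRP12. LTV1 (0.10, adjusted p = 0.027) lost its call without replicate 1 of shNR4A2 at 10% CO2 (adjusted p = 0.056), and the other 39 calls of this comparison held when any 1 of the 36 libraries was left out.

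All 12 large-subunit assembly genes rose. Besides MDN1 and URB1 these were URB2 (0.38), BOP1 (0.37), WDR12 (0.35) and PES1 (0.15), the last 3 being partners in 1 complex, RRS1 (0.25), NOP16 (0.21), the rRNA methyltransferase NOP2 (0.20), RRP1B (0.15), GNL3 (0.15), which encodes nucleostemin, and NIP7 (0.14). MDN1 stood at 103, 154 and 107 CPM in shNT + LPS at 5% CO2 and at 227, 202 and 185 CPM at 10% CO2. Without LPS shNT gave 98.3, 98.7 and 160 CPM against 206, 167 and 126 CPM. The groups were apart with LPS and overlapped without it, where replicate 3 at 5% CO2 (160) lay above replicate 3 at 10% CO2 (126). Among the 3 abundant nucleolar genes DDX21 rose (0.22, SE 0.06), while NCL (0.05) and NPM1 (0.09, adjusted p = 0.055) did not pass.

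**Figure D2:**
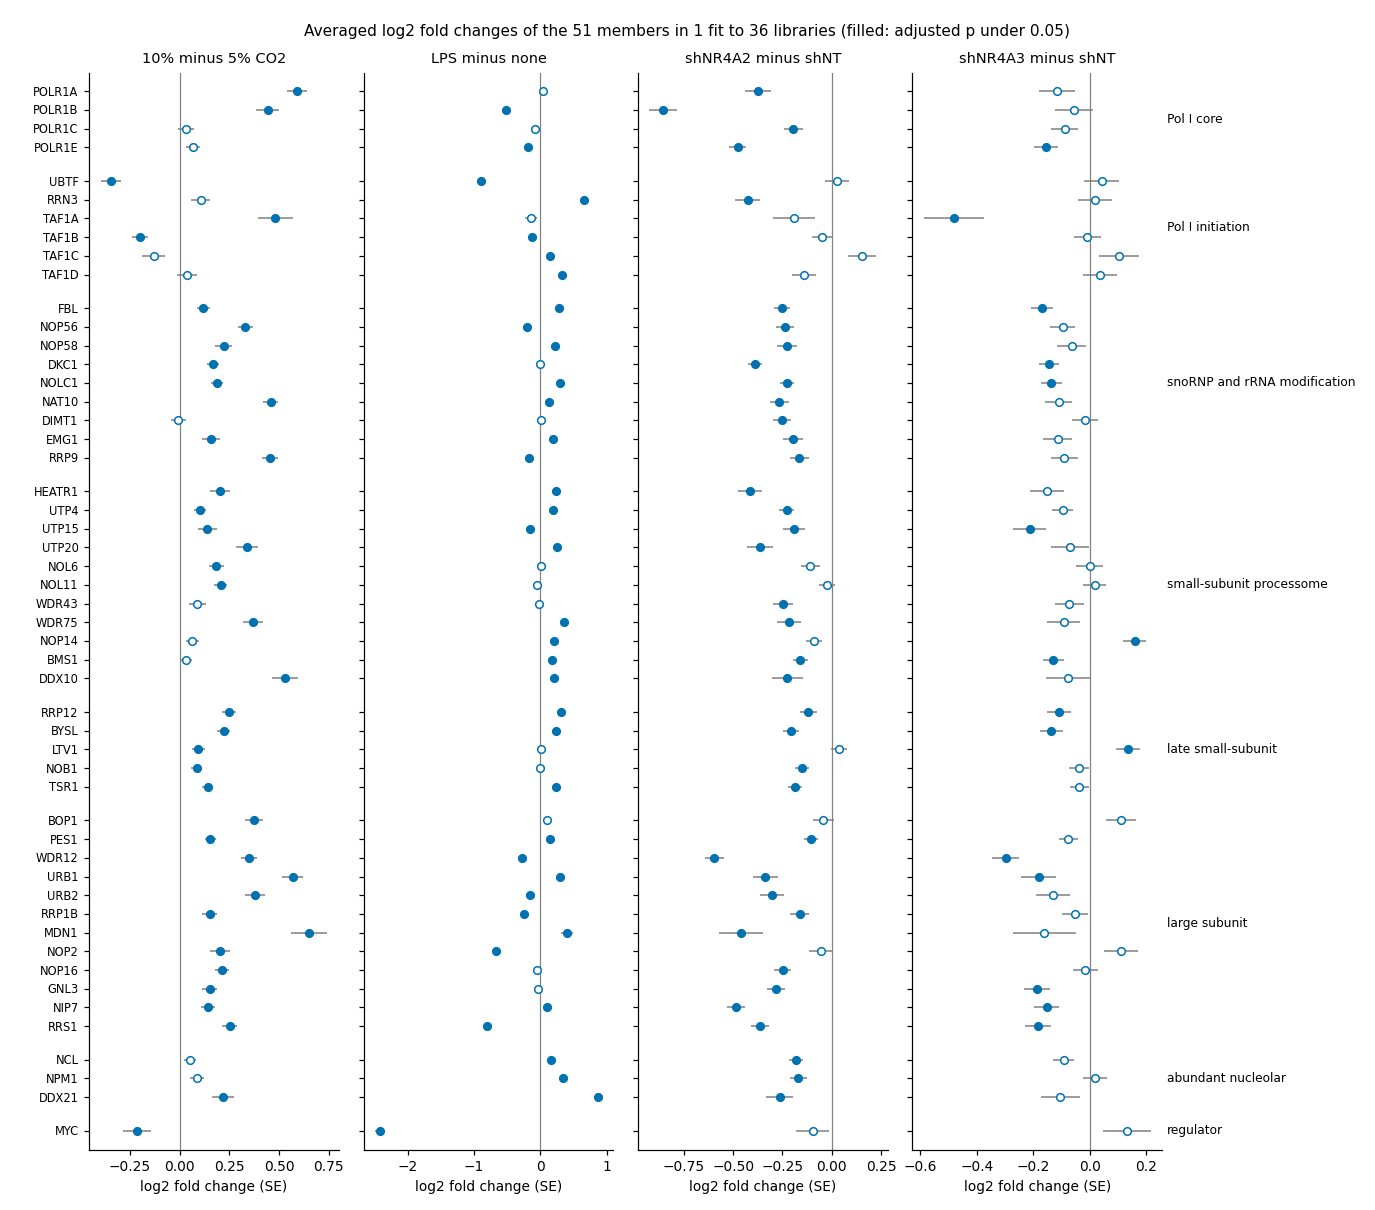
Log2 fold changes with their SE for the 51 members, by role group, in the 4 averaged contrasts of the fit to 36 libraries; filled points have an adjusted p under 0.05 and each panel has its own horizontal scale. In the CO2 panel 37 filled points lie right of 0 and 3 left of it (UBTF, TAF1B, MYC), and in the shNR4A2 panel all 39 filled points lie left of 0.

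MYC itself fell with CO2 on average, as UBTF and TAF1B did, while most members rose. In shNT without LPS it stood at 292, 309 and 326 CPM at 5% CO2 and at 293, 335 and 352 CPM at 10% CO2. With LPS it stood at 51.8, 39.2 and 47.8 CPM at 5% and 36.8, 32.4 and 34.7 CPM at 10% CO2. The groups overlapped without LPS and were apart with it, 10% CO2 being lower. The averaged change of MYC was -0.21 (SE 0.07, adjusted p = 0.014), made up of -0.03 to 0.09 in the lines without LPS and -0.41 to -0.47 with LPS, and the difference between the states was -0.44 (SE 0.14) and did not pass (adjusted p = 0.084). Of 10 tested partners and antagonists of MYC (its network of E-box binding proteins), 3 rose and 3 fell with CO2.

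For the 3 members shown here the stretch upstream of the annotated start is given, since RRP9 and MDN1 are among the members with the largest increases and UTP20 and MDN1 hold the E-box that MYC and its partner MAX bind. The sequences are from RefSeq on GRCh38.p14, cut to the part before the start that lies outside annotated exons. They run on the strand of the gene, at chr3:51941942-51942154 (minus, RRP9), chr12:101279855-101280104 (plus, UTP20) and chr6:89819795-89820044 (minus, MDN1), with the matched motif in capitals.
RRP9: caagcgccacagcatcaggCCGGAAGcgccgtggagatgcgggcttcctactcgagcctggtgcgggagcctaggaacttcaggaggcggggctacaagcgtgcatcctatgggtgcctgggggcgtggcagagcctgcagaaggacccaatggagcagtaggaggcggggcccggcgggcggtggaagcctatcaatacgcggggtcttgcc
UTP20: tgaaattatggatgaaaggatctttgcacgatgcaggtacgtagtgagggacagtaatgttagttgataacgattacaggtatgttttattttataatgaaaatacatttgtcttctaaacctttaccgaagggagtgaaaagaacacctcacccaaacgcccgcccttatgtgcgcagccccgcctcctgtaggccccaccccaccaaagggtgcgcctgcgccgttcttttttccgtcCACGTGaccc
MDN1: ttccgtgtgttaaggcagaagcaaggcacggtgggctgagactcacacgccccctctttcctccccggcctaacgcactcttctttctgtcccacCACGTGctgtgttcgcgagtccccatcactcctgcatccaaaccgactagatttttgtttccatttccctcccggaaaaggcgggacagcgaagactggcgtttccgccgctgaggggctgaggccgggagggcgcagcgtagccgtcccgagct
Capitals mark CCGGAAG, the core of ETS-family sites, in RRP9 and CACGTG, the E-box, in UTP20 and MDN1.

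A promoter entry was found for 42 of the 51 members, with 49 start sites, and each window of 250 bases before the start was searched on both strands. CACGTG was in 5 of 49 windows (10.2%), those of MDN1, DDX21, NAT10, UTP20 and UTP4, against 6.34% of 35116 promoters and 8.0% of 17406 promoters of tested genes. CCGGAAG was in 15 of 49 windows (30.6%) of 14 genes, against 8.52% and 13%. Among these genes were RRP9, POLR1B, POLR1C, RRN3, TAF1B, TAF1D, FBL and DDX21, which rose, fell or did not pass with CO2. A match is a description of letters and not a measured binding site.

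Taken pair by pair, with 6 libraries to a test, fewer members passed. In shNT without LPS 3 rose (RRP9 0.57, WDR12 0.52 and NAT10 0.45), against 0.615% of all genes called (0.327% higher, 0.288% lower). In shNR4A2 without LPS edgeR called 0 members and 0.0113% of all genes (0.00564% in each direction), while 12 members reached an unadjusted p under 0.05 (8.07% of all genes) and 2 were called with DESeq2 (0.111% of the genes it fitted). With replicate numbers as a block, which pair the libraries there, edgeR called 7, all higher (POLR1A, MDN1, RRP9, BOP1, WDR12, NAT10 and RRS1), and 2.04% of all genes (0.909% higher, 1.13% lower). In shNR4A3 without LPS 5 rose (POLR1A 0.54, NAT10 0.53, POLR1B 0.53, URB1 0.50 and WDR12 0.42), against 1.13% of all genes (0.559% higher, 0.57% lower). The counts without LPS changed when single libraries were left out. In shNT the count was 0 without replicate 1 or 3 at 5% CO2 or replicate 2 at 10% CO2, and 7 and 6 without replicates 1 and 3 at 10%. In shNR4A3 it was 1 without replicate 2 at 5% CO2 or replicate 1 at 10% CO2, 0 without replicate 2 at 10% CO2 and 8 without replicate 1 at 5%.

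With LPS, 18 members rose and 2 fell (UBTF and MYC) in shNT, against 8.19% of all genes called (4.47% higher, 3.72% lower). The largest were MDN1 (0.76), DDX10 (0.67), POLR1A (0.61), URB1 (0.59) and UTP20 (0.50), and 4 of the 20 calls, those of DDX10, POLR1A, URB1 and UTP20, held without any 1 library. The count was 5, 9, 7 and 11 without replicates 1 and 2 at 5% CO2 and replicates 2 and 3 at 10% CO2. In shNR4A2 + LPS 3 rose (MDN1 0.94, URB1 0.78 and POLR1A 0.76; 0.198% of all genes called, 0.152% higher and 0.0451% lower), with 0 left without replicate 1 at 5% CO2 or any of the 3 at 10% CO2 and 9 without replicate 3 at 5%. In shNR4A3 + LPS 7 rose and UBTF fell (DDX10 0.77, URB1 0.66, MDN1 0.62, POLR1A 0.56, NAT10 0.55; 2.13% of all genes called, 0.931% higher and 1.2% lower), with 0 left without replicate 1 or 2 at 10% CO2 and 5 without replicate 1 or 3 at 5%. RRP9 rose by 0.45 (adjusted p = 0.013) in shNT + LPS and differed by 0.38 to 0.42 in the knockdown lines with LPS, where it did not pass.

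The direction was shared more widely than the calls. The log2 fold change was positive in all 6 pairs for 35 members, in 5 for 7 members, in 4 for 3, in 3 for 2, and in at most 1 for TAF1C, MYC, UBTF and TAF1B. The share of all genes that were positive in all 6 pairs was not counted, so these sign counts have no background beside them. The 3 libraries at 10% CO2 lay above the 3 at 5% CO2 for 29 members in shNT, 12 in shNR4A2 and 29 in shNR4A3, and with LPS for 34, 25 and 26, against 10.2%, 6.41%, 11.1%, 15.3%, 10.8% and 12% of all genes tested. They lay below for 1, 1, 1, 2, 1 and 2 members, against 9.67%, 7.35%, 11.1%, 14.5%, 10.6% and 13.1%. With 3 libraries a side the smallest exact two-sided permutation p for a single gene is 0.1, so these counts describe the libraries and test nothing.

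The difference between the CO2 responses of the lines was tested directly. For shNR4A2 against shNT edgeR and DESeq2 each called 0 members and 0 genes in all, and at an unadjusted p under 0.05 edgeR had 0 members among 509 genes. For shNR4A3 against shNT both tools again called 0 members and 0 genes, with 2 members among the 421 genes that edgeR placed under an unadjusted 0.05. The median member's response differed from that of shNT by -0.03 in shNR4A2 and -0.05 in shNR4A3, so a lower count of calls in shNR4A2 is not a tested difference of response.

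**Figure D3:**
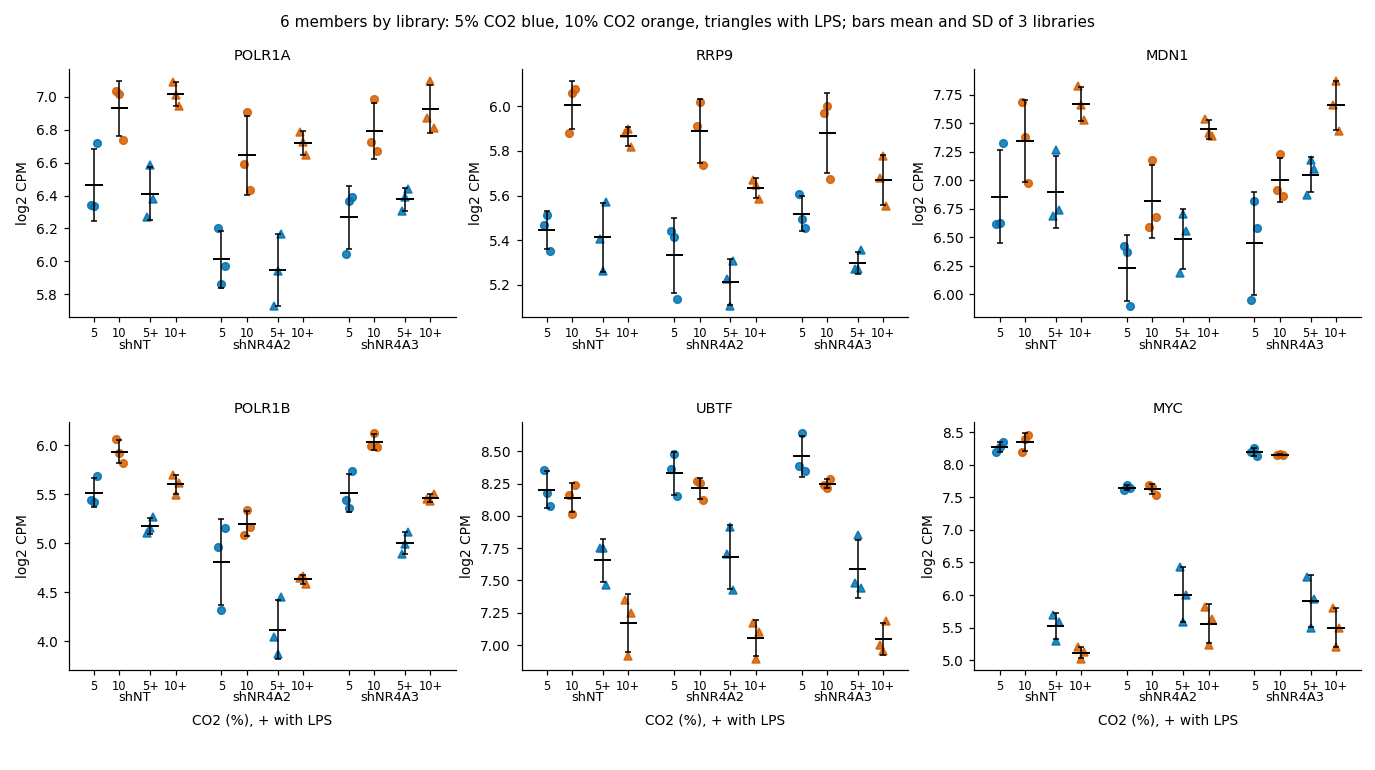
Log2 CPM of POLR1A, RRP9, MDN1, POLR1B, UBTF and MYC in each of the 36 libraries, by line, CO2 level and LPS, 1 panel a gene with its own vertical scale. POLR1A and RRP9 are higher at 10% CO2 (orange) in every line and LPS state, POLR1B is lowest in shNR4A2, and UBTF and MYC are lower with LPS (triangles).

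Of 122 other tested genes of RNA polymerase I, ribosome assembly and rRNA processing, 73 rose and 7 fell with CO2 (median 0.13). The 11 further polymerase I genes gave 7 and 0, the 41 small-subunit genes 27 and 0, the 48 large-subunit genes 27 and 3, the 8 snoRNP genes 6 and 0, and the 14 nucleases and related factors 6 and 4. Across the 51 members the CO2 change and the gene length had a Spearman rho of 0.25, given as a description over genes that share the same libraries, against 0.018 over all genes tested.

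LPS moved the members in both directions. Averaged over the 6 pairs of line and CO2 level, 25 members were higher and 13 lower with LPS, against 30.5% and 34.1% of all genes (64.6% called in all). The median member differed by 0.09 and the median of all genes by -0.011. MYC fell most, from 292, 309 and 326 CPM in shNT at 5% CO2 to 51.8, 39.2 and 47.8 CPM with LPS. The averaged change of MYC was -2.42 (SE 0.07, adjusted p = 3.2e-23) and the groups were apart in all 6 pairs. These directions depend on scaling: without TMM factors, by library size only, the median of all genes was -0.22 and the members split into 8 higher and 29 lower. All 17720 genes split into 2733 higher and 9800 lower by that setting, a shift that the members share.

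The genes lower with LPS included UBTF (-0.90, SE 0.05, adjusted p = 3.5e-17), POLR1B (-0.51, SE 0.06, adjusted p = 8.9e-10) and POLR1E (-0.18, SE 0.04) on the transcription side. On the large-subunit side they included RRS1, needed for the assembly of the central ribonucleoprotein of that subunit (-0.80, SE 0.04, adjusted p = 1.5e-19), NOP2 (-0.67, SE 0.05, adjusted p = 3.4e-14), WDR12 (-0.27), RRP1B (-0.24) and URB2 (-0.16). TAF1B (-0.13), NOP56 (-0.21), RRP9 (-0.17, SE 0.04, adjusted p = 0.00048) and UTP15 (-0.16) were lower as well. All 13 lower calls were also made with library size only. That scaling moved the median of all genes from -0.011 to -0.22, so a lower call could hardly be lost under it. It therefore does not show that the lower calls are firmer than the higher ones. RRS1 stood at 83.4, 76.3 and 74.7 CPM in shNT at 5% CO2 and at 52.6, 52.5 and 58.8 CPM with LPS. NOP2 stood at 34.4, 36 and 33.6 CPM against 26.7, 25.2 and 26.8 CPM. Neither gene's groups overlapped, there or in any of the other pairs, and both were called in all 6.

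The genes higher with LPS were led by DDX21 (0.87, SE 0.06, adjusted p = 2.5e-15) and RRN3 (0.66, SE 0.05, adjusted p = 8.2e-14), followed by MDN1 (0.40), WDR75 (0.36), NPM1 (0.35), TAF1D (0.33), RRP12 (0.31), NOLC1 (0.30), URB1 (0.29) and FBL (0.29). DDX21 stood at 407, 320 and 347 CPM in shNT at 5% CO2 and at 654, 647 and 591 CPM with LPS. RRN3 went from 61.5, 49.6 and 53.7 CPM to 92.9, 83.9 and 83.7 CPM. Both were apart in all 6 pairs and called in each. Only 8 of the 25 higher calls were also made by library size only (DDX21, RRN3, WDR75, NPM1, TAF1D, RRP12, NOLC1 and FBL), and 10 of the 25 changed sign. POLR1A differed by 0.04 (SE 0.05, adjusted p = 0.49) with TMM factors and by -0.17 (adjusted p = 0.0073) by library size only. TAF1C (0.14, adjusted p = 0.033) lost its call without replicate 1 of shNR4A3 5% CO2 + LPS (adjusted p = 0.064), and the other 37 calls held without any 1 library.

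In single pairs LPS raised 13 and lowered 5 members in shNT at 5% CO2 (22.9% of all genes called, 11.2% higher and 11.6% lower), 3 and 5 in shNR4A2 (18.2%, as 8.91% and 9.26%) and 10 and 6 in shNR4A3 (25.3%, as 11.9% and 13.4%). At 10% CO2 it raised 18 and lowered 5 in shNT (31.2%, as 15.1% and 16.1%), 12 and 8 in shNR4A2 (35%, as 16.5% and 18.5%) and 21 and 14 in shNR4A3 (42.1%, as 20.6% and 21.5%). By library size only the splits were 3 and 8, 2 and 11, 2 and 17, 3 and 10, 3 and 21, and 4 and 24 in the same order. All genes tilted the same way by that setting, at 1218 and 4147, 1122 and 3549, 1438 and 4479, 1546 and 5476, 1731 and 5996, and 1969 and 6791. The replicate number pairs the libraries in each of these pairs except shNT at 5% CO2. With it as a block, edgeR called 11 and 24 members in shNR4A2 and shNR4A3 at 5% CO2 (27.7% and 35.6% of all genes). At 10% CO2 it called 27, 26 and 45 in shNT, shNR4A2 and shNR4A3 (40.4%, 42.3% and 52.2%). The log2 fold changes of MYC were -2.73, -1.60 and -2.25 in shNT, shNR4A2 and shNR4A3 at 5% CO2 and -3.23, -2.04 and -2.62 at 10% CO2. UBTF was lower in all 6 pairs, from -0.54 in shNT at 5% CO2 to -1.18 in shNR4A3 at 10% CO2. With TMM factors and no block, the count of members called was 10 without replicate 1 or 3 of shNR4A3 at 5% CO2 and 8 without replicate 1 or 3 of its LPS condition. In shNT at 10% CO2 it was 13 or 14 without replicate 2 or without any replicate of the LPS condition. Averaged over the 6 pairs, 50 of the 122 other pathway genes were higher and 34 lower (median 0.05). Of the 10 genes of the MYC network 2 were higher and 7 lower. Of all genes, 30.5% were higher and 34.1% lower (64.6% called in all). These counts use TMM factors, on which the directions depend.

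The fall of MYC with LPS was smaller in shNR4A2. The LPS response of shNR4A2 minus that of shNT, averaged over both CO2 levels, was 1.16 for MYC (SE 0.17, adjusted p = 0.00040), and 42 genes (0.237%) were called for this difference in all. The call of MYC held without any 1 library. MYC stood at 194, 206 and 200 CPM in shNR4A2 at 5% CO2 and at 86.4, 47.9 and 63.6 CPM with LPS. It thus lay below every shNT library without LPS, while with LPS its lowest library (47.9) lay between the shNT values of 47.8 and 51.8 CPM. For shNR4A3 the difference was 0.54 for MYC (adjusted p = 0.17), edgeR called 0 members and 67 genes (0.378%), 12 members reached an unadjusted p under 0.05 (9.46% of all genes), and 1 was called with DESeq2 (0.349% of the genes it fitted).

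**Figure D4:**
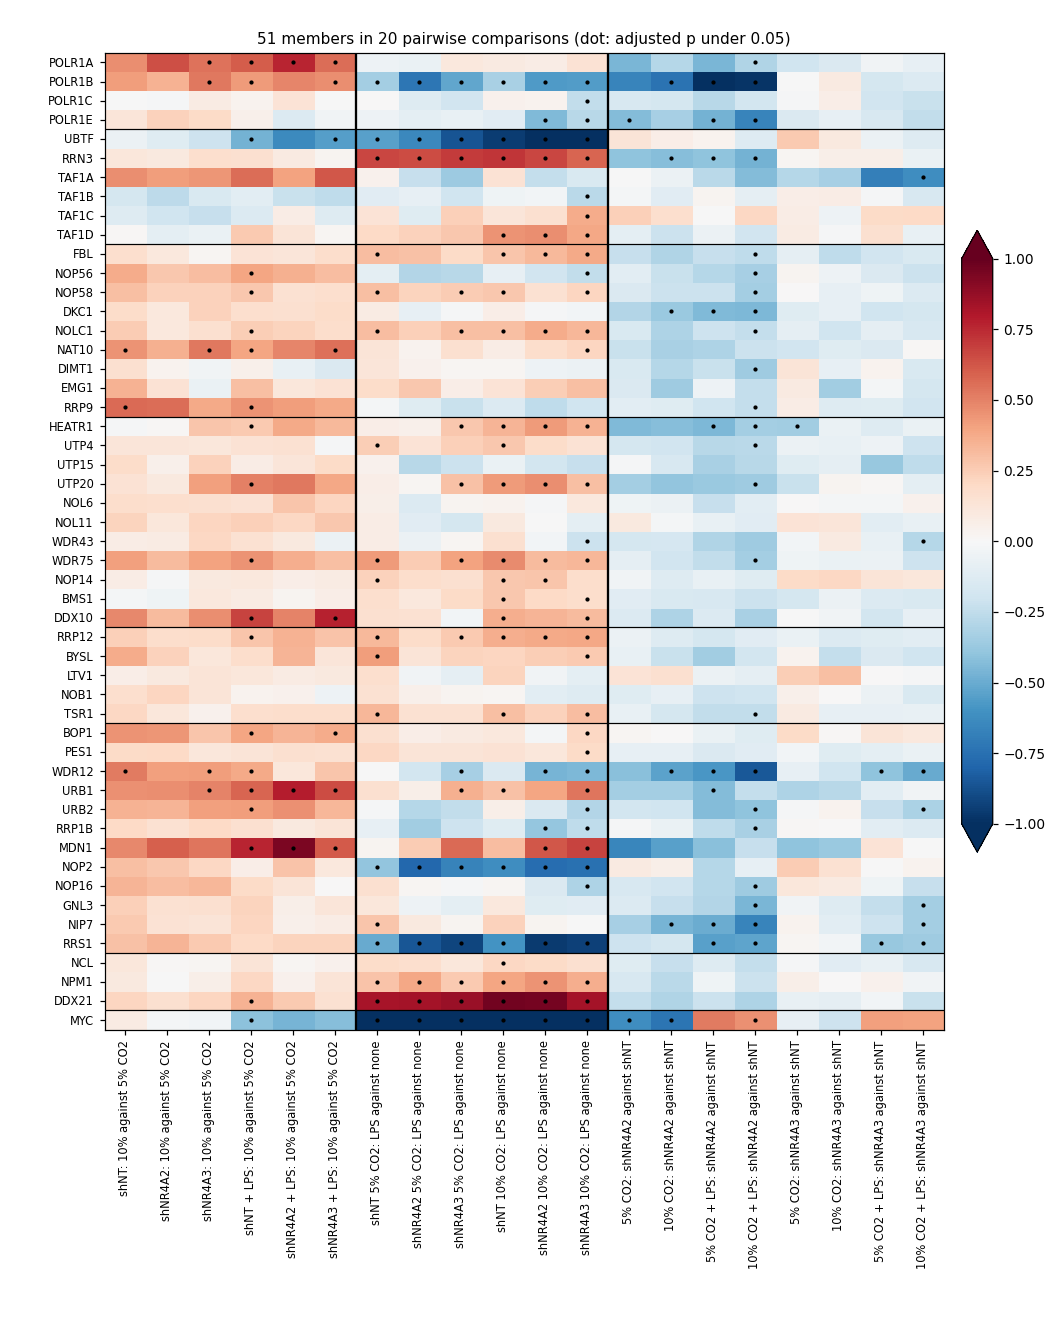
Log2 fold changes of the 51 members (rows, by role group) in the 20 pairwise comparisons (columns: 6 of CO2, 6 of LPS, 8 of a knockdown line against shNT); colours end at 1 and -1 and dots mark an adjusted p under 0.05. The CO2 columns are mostly red, with UBTF and MYC blue in the LPS state, and the shNR4A2 columns are mostly blue.

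The lines were then compared within each CO2 and LPS state. Averaged over the 4 states, 39 members were lower in shNR4A2 than in shNT and 0 were higher, against 20.7% and 20.2% of all genes (40.9% called in all). The median member differed by -0.22 and the median of all genes by -0.0026. The summed level of the 8 monocyte markers also differed between the lines, at 752 to 1158 TPM in shNT and 1430 to 1792 TPM in shNR4A2, with CD68 and MPO low throughout. Taken singly over all CO2 and LPS states, only LYZ was apart. Its libraries lay at 131 to 223 TPM in shNT and 462 to 714 TPM in shNR4A2. The ranges of CD14, CD33, SPI1, ITGAM, CD68, CSF1R and MPO over all states overlapped. Within each of the 4 states, CD14 and CSF1R were also higher in every shNR4A2 library than in any shNT library. At 5% CO2 CD14 lay at 39.9 to 66.7 TPM against 17.3 to 32.2 TPM, and CSF1R at 134 to 162 TPM against 75.9 to 101 TPM. CD33, SPI1, ITGAM, CD68 and MPO overlapped in 1 or more of the states. NCAM1 was higher in every shNR4A2 library than in any shNT library (8.04 to 15.6 against 1.19 to 1.79 TPM). PECAM1 lay at 150.0 to 289 TPM against 74.0 to 206 TPM, which overlapped over all states. Within each of the 4 states PECAM1 too was higher in every shNR4A2 library, as at 5% CO2 (250 to 289 against 155 to 206 TPM). The part of these markers in the result was not tested. In bulk RNA, fewer cells of a kind and less RNA per cell cannot be told apart.

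All 4 genes of the polymerase core were lower in shNR4A2, namely POLR1B (-0.85, SE 0.07, adjusted p = 5.2e-12), POLR1E (-0.48, SE 0.04), POLR1A (-0.37, SE 0.06, adjusted p = 1.5e-05) and POLR1C (-0.20, SE 0.05). POLR1B stood at 51.6, 45.1 and 48.8 CPM in shNT at 10% CO2 + LPS and at 25, 25.3 and 23.8 CPM in shNR4A2. At 5% CO2 without LPS it gave 43.5, 42.8 and 51.4 CPM against 31.1, 19.8 and 35.5 CPM. The lines did not overlap in any of the 4 states. Of the 6 initiation genes RRN3 was lower (-0.43, SE 0.06, adjusted p = 7.4e-07), and UBTF (0.03), TAF1A (-0.19), TAF1B (-0.05), TAF1C (0.15) and TAF1D (-0.14) did not pass.

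All 9 snoRNP genes were lower, from DKC1 (-0.39, SE 0.04, adjusted p = 7.5e-11) to RRP9 (-0.16, SE 0.05, adjusted p = 0.0067). So were 8 of 11 genes of the small-subunit processome, led by HEATR1, which couples transcription to early processing (-0.41, SE 0.06), and UTP20 (-0.36). Late in the small subunit 4 of 5 were lower, in the large subunit 10 of 12, and in the nucleolar group all 3. WDR12 (-0.60, SE 0.05, adjusted p = 5.2e-12), NIP7 (-0.49, SE 0.04), MDN1 (-0.46, SE 0.11) and RRS1 (-0.36, SE 0.05) changed most among the large-subunit genes, while BOP1 (-0.04) and NOP2 (-0.06) did not pass. WDR12 stood at 72.6, 71.5 and 67.9 CPM in shNT at 10% CO2 + LPS and at 41.8, 39.2 and 36.9 CPM in shNR4A2. Its lines did not overlap in any of the 4 states. MYC differed by -0.10 (SE 0.08, adjusted p = 0.39) over the 4 states, since its sign turned with LPS. Of the 39 calls 37 held without any 1 library; DDX10 (-0.23) lost its call without replicate 3 of shNR4A2 10% CO2 + LPS (adjusted p = 0.052) and RRP12 (-0.12) without replicate 3 of shNR4A2 10% CO2 (adjusted p = 0.057).

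State by state, 2 members were lower in shNR4A2 at 5% CO2 (MYC -0.62 and POLR1E -0.44; 5.69% of all genes called, 3.22% higher and 2.47% lower) and 6 at 10% CO2 (POLR1B -0.74, MYC -0.73, WDR12 -0.54, NIP7 -0.46, RRN3 -0.43 and DKC1 -0.37; 7.95%, as 4.55% higher and 3.4% lower). With LPS 9 were lower at 5% CO2 (6.21% of all genes called, 3.84% higher and 2.37% lower), led by POLR1B (-1.04), WDR12 (-0.58), RRS1 (-0.54), NIP7 (-0.49) and POLR1E (-0.47). At 10% CO2 + LPS 23 were lower and MYC was higher (18.9%, as 9.29% higher and 9.58% lower), led by POLR1B (-0.98), WDR12 (-0.85), POLR1E (-0.66), NIP7 (-0.66) and RRS1 (-0.53). With the replicate number as a block, which pairs the libraries at 5% CO2 and in both LPS states, edgeR called 17, 34 and 41 members there, against 21.5%, 24.7% and 34.8% of all genes under the same block. MYC differed by 0.52 (adjusted p = 0.18) at 5% CO2 + LPS and by 0.46 (adjusted p = 0.024) at 10% CO2 + LPS, and the first passed with the block (adjusted p = 2.0e-06). The libraries of shNR4A2 lay below all of shNT for 20, 21, 31 and 34 members in the order 5%, 10%, 5% + LPS and 10% + LPS, against 12.6%, 12.6%, 13.1% and 18.6% of all genes.

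These counts by state moved with single libraries. At 5% CO2 the count of 2 was 1 without replicate 2 or 3 of shNT and 4 without replicate 1 of shNR4A2. At 10% CO2 the count of 6 was 2 without replicate 2 of shNT or replicate 3 of shNR4A2 and 10 without replicate 3 of shNT or replicate 2 of shNR4A2. With LPS the 9 at 5% CO2 were 4 without replicate 2 or 3 of shNT, and the 24 at 10% CO2 were 14 without replicate 1 or 3 of shNT and 10 without replicate 3 of shNR4A2. The calls that held without any 1 library were those of MYC at 5% CO2, MYC and POLR1B at 10% CO2, NIP7, POLR1B and WDR12 at 5% CO2 + LPS, and 10 at 10% CO2 + LPS, among them POLR1B, POLR1E, WDR12, NIP7, RRS1, RRN3 and GNL3.

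In shNR4A3, compared with the same shNT libraries, 14 members were lower and 2 higher (NOP14 0.16 and LTV1 0.14) over the 4 states, against 16.9% and 16.0% of all genes (32.9% called in all). Together 16 of 51 were called, a share near that of all genes. The median member differed by -0.09 and the median of all genes by -0.0023. The lower genes were led by TAF1A (-0.48, SE 0.11, adjusted p = 0.00067), WDR12 (-0.30, SE 0.05, adjusted p = 9.4e-06), UTP15 (-0.21, SE 0.06), GNL3 (-0.19, SE 0.05) and RRS1 (-0.18, SE 0.05). POLR1A (-0.12, adjusted p = 0.17), POLR1B (-0.06), RRP9 (-0.09, adjusted p = 0.16) and MYC (0.13, adjusted p = 0.24) did not pass. WDR12 stood at 48.1, 52.0 and 49.0 CPM in shNR4A3 at 10% CO2 + LPS, below the 3 shNT libraries. TAF1A gave 8.67, 9.44 and 7.97 CPM there against 10.6, 16.1 and 13.5 CPM in shNT, also without overlap. Over all CO2 and LPS states, LYZ (583 to 1058 TPM) was here too the only monocyte marker with all libraries above those of shNT. Within each of the 4 states CSF1R, ITGAM and SPI1 also lay above every shNT library. At 5% CO2 CSF1R gave 157 to 182 TPM against 75.9 to 101 TPM, and ITGAM 42.6 to 60.2 TPM against 24.8 to 38.4 TPM. For SPI1 the gap was narrow at 10% CO2 (lowest 564 against highest 562 TPM). CD14, CD33, CD68 and MPO overlapped in 1 or more of the states. The summed monocyte markers were at 1556 to 2200 TPM in this line and NCAM1 at 5.98 to 12.3 TPM, both above every shNT library, while PECAM1 (112 to 208 TPM) overlapped with shNT, and their part in the result was not tested. By library size only 24 members were lower and 2 higher, against 3631 and 2389 of all 17720 genes. The calls of URB1 (-0.18) and RRP12 (-0.11, adjusted p = 0.047) were lost without replicate 1 of shNR4A3 at 5% CO2 (adjusted p = 0.059) and replicate 2 of shNT at 10% CO2 (adjusted p = 0.095), among others, and the other 14 held without any 1 library.

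Pair by pair, shNR4A3 differed from shNT in 1 member at 5% CO2 (HEATR1 -0.34; 6.19% of all genes called, 3.36% higher and 2.83% lower), in 2 at 5% CO2 + LPS (WDR12 -0.40 and RRS1 -0.38; 5.41%, as 3.24% and 2.17%) and in 7 at 10% CO2 + LPS (TAF1A -0.62, WDR12 -0.51, RRS1 -0.36, GNL3 -0.34, NIP7 -0.34, URB2 -0.32 and WDR43 -0.28; 14.5%, as 7.3% and 7.21%), all lower. At 10% CO2 without LPS edgeR called 0 members (6.85% of all genes, 3.49% higher and 3.35% lower), while 10 reached an unadjusted p under 0.05, a share near the 19.4% of all genes that did, and 1 was called with DESeq2 (2.85% of the genes it fitted). The replicate number pairs the libraries in all 4 of these states, and with it as a block 4, 5, 11 and 23 members were called in the order 5%, 10%, 5% + LPS and 10% + LPS. Under the same block 13%, 13.5%, 18.7% and 24.9% of all genes were called, so the first 3 counts of members are below or near the share of all genes. The call at 5% CO2 was lost without replicate 1 or 3 of shNT or any replicate of shNR4A3, and at 10% CO2 3 members were called without replicate 1 of shNT and 1 without replicate 3. With LPS, the 2 at 5% CO2 were 0 or 1 without any replicate of shNT or without replicate 1 or 3 of shNR4A3, and 4 without its replicate 2. The 7 at 10% CO2 + LPS were 3 or 4 without replicate 1 or 3 of either line, and GNL3, NIP7 and WDR12 held without any 1 library.

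Of the 122 other pathway genes 57 were lower and 9 higher in shNR4A2 (median -0.11), and 30 were lower and 6 higher in shNR4A3 (median -0.07). Of all genes, 20.7% were lower and 20.2% higher in shNR4A2 (40.9% called in all). In shNR4A3 16.9% were lower and 16.0% higher (32.9% in all). Of the 10 genes of the MYC network 4 were lower and 1 higher in shNR4A2, and 1 was lower and 4 were higher in shNR4A3.

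Over the 12 condition means, the correlation of a member with the mean of the other 50 had a median of 0.70, a description over conditions that share lines and scaling. It was highest for DKC1 (0.94), POLR1A (0.92) and URB2 (0.91) and below 0 for 4 members, MYC (-0.22), UBTF (-0.31), TAF1B (-0.40) and TAF1C (-0.62).

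Some values rest on reads that could belong to neighbours or copies. Named pseudogene copies are listed for 11 members, with 49 for NPM1 and 20 for BMS1, so that reads of these genes may have been divided or lost. An exon overlaps another gene for 26 members, on the opposite strand for 21, and the strand setting of the counting is not given in the sources used here. For 11 members an overlapping gene had over 10% of the member's mean count. It had 125% of the member's mean count for UTP4 (with CHTF8), 93.7% for EMG1 (with LPCAT3), 86.8% for NOP16 (with HIGD2A), 56.5% for HEATR1 (with LGALS8) and 43.9% for TSR1 (with SGSM2). TAF1D overlaps MED17 (37.4%), CEP295 (36.4%) and C11orf54 (19.4%). For UTP15, GNL3, TAF1C, WDR12 and NIP7 the largest share was 24% to 11.2%. The values of these 11 members are uncertain for that reason.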

How the data were processed

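RNA-seq of poly(A) RNA from THP-1 lines was read as paired ends; per the labels and the study's methods the authors used Trimmomatic 0.36 for trimming, STAR 2.5.2b for alignment on GRCh38, and counted unique reads in exons with featureCounts of Subread 1.5.2. The sources used here do not give the strand setting, the release of the annotation, or if a pair counted once. The deposited values are raw counts per gene, 1 file a library, with gene lengths, and 56410 gene IDs (98.1%) had a symbol. The labels give line, CO2 level and LPS state for 36 libraries in 12 conditions of 3.

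From these counts, genes with low counts were removed (edgeR 4.0.16 filterByExpr, minimum count 10, minimum total 15), leaving 17720, and edgeR's quasi-likelihood test with TMM factors and Benjamini-Hochberg adjustment over all genes tested was used (R 4.3.3, limma 3.58.1). A gene was called at an adjusted p under 0.05, and SE was taken as the absolute log2 fold change over the root of F. Each pairwise comparison was fitted to its 6 libraries. Averaged contrasts came from 1 fit to the 36. Each library enters several comparisons, and both knockdown lines are set against the same shNT libraries. CPM are scaled by TMM factors over the 36 libraries, log2 CPM use a prior count of 2, and TPM use the deposited gene lengths. Alternatives were DESeq2 1.42.0, RLE factors, library size only, no filter, a prior count of 0.5 for log2 CPM, the module mean without MYC, 1 fit to all libraries, the replicate number as a block, and leaving out each library. The scripts were tested on simulated data.

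The replicate numbers were taken to pair libraries where the deviations of same-numbered libraries from their group means correlated above 0.1 in all 3 pairs, over 9374 genes. This held in 13 of 20 pairwise comparisons and not for the fit to 36 libraries, where 146 of 198 correlations exceeded 0.1 and the lowest was -0.47.

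The members, the lists of other pathway genes and markers, and the tests were chosen with earlier results of these data known. Named in the text are POLR1A, RRP9 and MYC in each comparison, up to 5 called members with the largest change and non-overlapping libraries, members called in an interaction, and members against the majority. Promoter sequences are from RefSeq (GRCh38.p14). Total counts of 16171161 to 23929138 limit precision mainly for low genes, and the spread between replicates exceeded counting noise (chi-square per degree of freedom 6.63 to 29.6). The level of 1 marker of another cell type is not reported here.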

Additional observations from a re-analysis of the deposited data

Results flagged for a closer look

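UBTF had a CO2 response that differed with LPS. In the fit to 36 libraries the response with LPS minus that without it was -0.42 (SE 0.10, edgeR adjusted p = 0.020), and with LPS the log2 fold change was -0.48, -0.64 and -0.55 in shNT, shNR4A2 and shNR4A3, against -0.06, -0.12 and -0.21 without it.

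MYC had an LPS response that differed between shNR4A2 and shNT. The difference was 1.16 (SE 0.17, edgeR adjusted p = 0.00040), from log2 fold changes of -1.60 and -2.04 in shNR4A2 at 5% and 10% CO2 against -2.73 and -3.23 in shNT.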

How the results depend on the processing

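By library size only, the module mean differed by 0.18 for CO2 in shNT + LPS, by -0.12, -0.25 and -0.21 for LPS at 5% CO2 (shNT, shNR4A2, shNR4A3), by -0.16, -0.24 and -0.27 at 10% CO2, by -0.21 for LPS averaged, and by -0.051 at 5% CO2 and -0.14 at 5% CO2 + LPS for shNR4A3; without MYC it was 0.11, 0.029 and 0.12 for LPS in shNT and shNR4A3 at 5% CO2 and shNT at 10% CO2. Library size only gave, in members called, 8 (CO2, shNR4A3), 0 and 4 (CO2 with LPS, shNR4A2 and shNR4A3), 11, 13 and 13 (LPS in shNT and shNR4A2 at 5% CO2 and shNT at 10%), 1 and 4 (shNR4A3 at 10% CO2 and 5% CO2 + LPS), 26 (shNR4A3 averaged), and 3, 2 and 1 for CO2 by LPS, LPS by shNR4A2 and LPS by shNR4A3, and POLR1A turned to -0.17 for LPS averaged. By that scaling the median of all genes was -0.22 for LPS averaged (-0.011 with TMM factors), and it was -0.0061 by either scaling for shNR4A3 at 10% CO2. The cause was not tested, here or for the other settings. Without a filter the counts were 11, 3, 13, 12 and 14 (CO2 in shNT, shNR4A2 and shNR4A3, then with LPS in shNR4A2 and shNR4A3), 8 and 15 (shNR4A2 at 5% CO2 and with LPS), 1 and 5 (shNR4A3 at 10% CO2 and 5% CO2 + LPS), 2 (CO2 by LPS) and 1 (LPS by shNR4A3). In 1 fit to 36 libraries they were 7, 2, 3 and 12 (CO2 in shNT, shNR4A2, shNR4A3 and shNR4A2 + LPS), 9, 15 and 22 (shNR4A2 at 5%, 10% and 5% CO2 + LPS) and 0, 2 and 4 (shNR4A3, same states). DESeq2 called 11, 2, 12 and 9 for CO2 in the same 4 pairs, 9 in shNR4A2 at 5% CO2, 1 in shNR4A3 at 10% CO2, and 2, 2 and 1 in the 3 interactions, and RLE factors gave 1 in shNR4A3 at 10% CO2. The counts of all genes moved with these settings too. For CO2 in shNR4A3 the main test called 200 genes, against 823 without a filter, 107 in 1 fit and 550 with DESeq2. In shNR4A2 + LPS these were 35, 1112, 1009 and 600. The member counts are therefore not results about the members alone.

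With the replicate number as a block the counts were 7, 19 and 11 (CO2 in shNR4A2, shNR4A3 and shNR4A2 + LPS), 17, 10, 34 and 41 (shNR4A2 at 5%, 10%, 5% + LPS, 10% + LPS), 4, 5, 11 and 23 (shNR4A3), and 2 in each of the 3 interactions; the module mean has no test to block. Leaving out single libraries gave 0 to 7, 0 to 8, 5 to 19, 0 to 9 and 0 to 7 for CO2 in shNT, shNR4A3, shNT + LPS, shNR4A2 + LPS and shNR4A3 + LPS, 8 to 15 and 13 to 25 for LPS in shNR4A3 at 5% and shNT at 10% CO2, 1 to 4, 2 to 10, 4 to 10 and 10 to 34 for shNR4A2 in the 4 states, 0 to 1, 0 to 3, 0 to 4 and 3 to 6 for shNR4A3, and 1 to 2, 1 to 2 and 0 to 2 for the interactions. Averaged counts ranged from 39 to 43 (CO2), 37 to 41 (LPS), 38 to 42 (shNR4A2) and 14 to 21 (shNR4A3). With the block, 361, 1073 and 619 of all genes were called for CO2 in shNR4A2, shNR4A3 and shNR4A2 + LPS, against 2, 200 and 35 without it. Counts with 3 libraries a side, of members and of all genes alike, thus depend on the setting.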
